A study of Homo sapiens and Mus musculus with 54 samples.

Results

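Gluconeogenesis is the route by which the liver makes glucose from lactate, glycerol and amino acids such as alanine during fasting. Here 10 of its genes were described in HepG2, a human liver cancer cell line. They were PC, PCK1, PCK2, FBP1 and G6PC1, which encode enzymes of the route, GPT2, TAT and SDS, which encode enzymes that break down amino acids, and PPARGC1A and FOXO1, which encode regulators. The genes were listed by name, and a chromatin interval was counted for a gene when it lay within 50 kb of the RefSeq GRCh38 gene body. All 10 were found in a RefSeq table with 19974 protein-coding genes on the autosomes and the X chromosome.

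The study mapped the aryl hydrocarbon receptor (AhR), the liver factor C/EBPα and H3K27ac, the histone acetylation found at active regulatory DNA, by ChIP-seq in cells with or without vitamin B2. All HepG2 groups were taken on day 12. AhR ChIP had 2 B2-deficient and 2 control libraries, C/EBPα ChIP had 2 B2-deficient and 2 control libraries, and H3K27ac ChIP had 5 B2-deficient and 5 control libraries. Another H3K27ac experiment had 2 B2-deficient libraries with an AhR inhibitor, 2 B2-deficient libraries with DMSO and 2 control libraries with DMSO. The inhibitor is labelled only as an AhR inhibitor. The 6 inputs were 2 of B2-deficient cells, shared by the AhR and C/EBPα ChIP, 2 of control cells for AhR and 2 of control cells for C/EBPα.

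The files gave 1 list of intervals for each experiment, with positions and no value per library. No difference between B2-deficient and control cells, or between inhibitor and DMSO, was therefore measured, and no value here has an error between replicates. An interval shows that a peak entered the list of an experiment, not in which libraries it was called. Depth is unknown. The H3K27ac list of the experiment with the AhR inhibitor is called the inhibitor list, although that experiment also had cells with DMSO alone. The other is called the untreated list, since its experiment had neither inhibitor nor DMSO, although it included B2-deficient cells. Every peak name ends in a number, taken as how many peaks were joined into it and called the merge number. HepG2 is a single cancer line. The hepatocyte markers ALB, APOA1, SERPINA1, TTR and HNF4A all had intervals of all 4 lists within 50 kb. So did most genes, since each list had an interval near 85.4% to 90.4% of all protein-coding genes. Among the markers, AhR peaks ranged from 14 at APOA1 and TTR to 36 at ALB, which encodes albumin. Untreated H3K27ac regions ranged from 10 at APOA1 to 61 at ALB.

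As background, fasting hormones raise gluconeogenesis largely by transcription. Glucagon acts through cAMP and CREB to induce PPARGC1A, whose product PGC-1α works with FOXO1 and HNF4A at the PCK1 and G6PC1 genes, and insulin opposes this by keeping FOXO1 out of the nucleus. In mice without C/EBPα the induction of these enzymes at birth is delayed, and the newborns become hypoglycaemic. AhR is a ligand-activated factor best known for inducing detoxification enzymes, and in rodents the AhR ligand dioxin lowers hepatic PEPCK.

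Every one of the 10 genes had AhR peaks, C/EBPα peaks and H3K27ac regions of both lists within 50 kb. This holds for most genes: 85.4% of all protein-coding genes had an AhR peak in that distance, 88.6% a C/EBPα peak, 88.1% an inhibitor-list region and 90.4% an untreated-list region. The 10 genes had 128 AhR peaks in all, with a median of 14 per gene against 4 over all protein-coding genes, and 9 of 10 lay above that median. They had 144 C/EBPα peaks, with a median of 13 against 4. In H3K27ac they had 277 inhibitor-list regions, with a median of 24 against 6, and 284 untreated-list regions, with a median of 26.5 against 7. SDS was the gene below the median in all 4 lists.

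**Figure D1:**
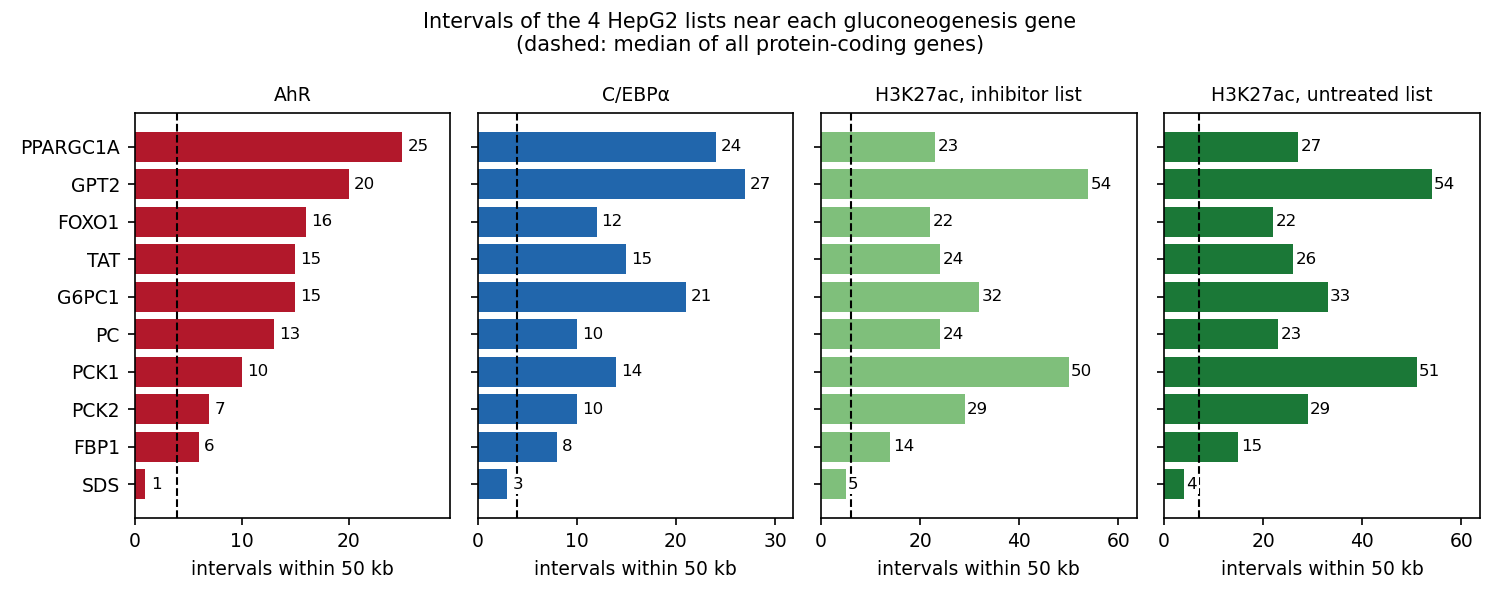
Number of intervals of each list within 50 kb of each gene (x axis, counts) for the 10 genes (y axis), with the median of all protein-coding genes as a dashed line. PPARGC1A and GPT2 had the most AhR peaks, with 25 and 20, GPT2 and PCK1 the most H3K27ac regions, and SDS the fewest of every list.

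The promoters were examined directly, since C/EBPα and cAMP response elements close to the start sites are the classical control regions of PCK1 and G6PC1. RefSeq promoter windows of GRCh38.p14, from 250 bases before to 50 bases after a start, were at hand for 7 of the 10 genes and 10 starts. PCK1, GPT2 and TAT had none. Distances at these genes are therefore to gene ends, and neither end is named as the start. An AhR peak overlapped 4 of the 10 windows, at G6PC1, at 2 starts of PC and at 1 start of PPARGC1A, against 7.01% of all 22156 windows. A C/EBPα peak overlapped 4 of 10, at PCK2, G6PC1, PC and PPARGC1A, against 9.98%. No H3K27ac region overlapped any of the 10, against 1.07% of windows for the inhibitor list and 1.11% for the untreated list. Over the whole lists, 4.79% of inhibitor-list and 4.66% of untreated-list centres lay within 3 kb of a start. For AhR it was 13.5% of 54184 and for C/EBPα 15.5% of 60058. Every distance from a start to H3K27ac given below shares this limit of the lists.

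The AhR-overlapped windows are shown because they are the places where AhR peaks lay on the start of a gluconeogenesis gene, and 2 others because they hold the AhR motif core without a peak. Sequences are from RefSeq, 5′ to 3′ along the gene. In the first 4, capitals mark the bases inside the AhR peak, with peak positions taken as 1-based. In the last 2, capitals mark GCGTG, the core of the xenobiotic response element that AhR and its partner ARNT bind, or its reverse complement. G6PC1 is chr17:42900549-42900848 on the plus strand, and the others are on the minus strand, PC at chr11:66907904-66908203 and chr11:66905985-66906284, PPARGC1A at chr4:23881052-23881351 and, for its far upstream start, chr4:24472856-24473155, and FBP1 at chr9:94639469-94639768.
G6PC1: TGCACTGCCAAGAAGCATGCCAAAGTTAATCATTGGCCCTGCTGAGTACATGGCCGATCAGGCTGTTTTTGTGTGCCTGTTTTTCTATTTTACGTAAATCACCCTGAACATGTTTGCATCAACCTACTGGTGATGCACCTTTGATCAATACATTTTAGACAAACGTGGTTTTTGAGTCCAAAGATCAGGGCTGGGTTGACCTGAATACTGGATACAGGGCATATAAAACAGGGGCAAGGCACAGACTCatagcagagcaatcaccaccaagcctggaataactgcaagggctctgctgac
PC, start at 66907953: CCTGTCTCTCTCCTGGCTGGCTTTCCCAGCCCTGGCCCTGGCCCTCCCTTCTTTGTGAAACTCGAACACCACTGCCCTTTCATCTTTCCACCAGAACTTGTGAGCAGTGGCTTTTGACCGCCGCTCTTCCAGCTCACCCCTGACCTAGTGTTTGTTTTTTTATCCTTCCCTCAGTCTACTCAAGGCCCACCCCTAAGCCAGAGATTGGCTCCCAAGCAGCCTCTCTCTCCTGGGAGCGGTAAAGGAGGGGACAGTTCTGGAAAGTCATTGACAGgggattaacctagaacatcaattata
PC, start at 66906034: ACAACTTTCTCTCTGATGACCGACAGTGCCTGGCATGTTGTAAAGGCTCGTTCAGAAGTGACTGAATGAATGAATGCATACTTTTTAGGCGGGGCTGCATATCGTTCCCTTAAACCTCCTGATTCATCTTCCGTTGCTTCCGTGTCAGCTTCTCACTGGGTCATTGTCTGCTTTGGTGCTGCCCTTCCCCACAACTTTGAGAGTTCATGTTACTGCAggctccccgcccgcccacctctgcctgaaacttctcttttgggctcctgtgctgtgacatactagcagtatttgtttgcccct
PPARGC1A, start at 23881101: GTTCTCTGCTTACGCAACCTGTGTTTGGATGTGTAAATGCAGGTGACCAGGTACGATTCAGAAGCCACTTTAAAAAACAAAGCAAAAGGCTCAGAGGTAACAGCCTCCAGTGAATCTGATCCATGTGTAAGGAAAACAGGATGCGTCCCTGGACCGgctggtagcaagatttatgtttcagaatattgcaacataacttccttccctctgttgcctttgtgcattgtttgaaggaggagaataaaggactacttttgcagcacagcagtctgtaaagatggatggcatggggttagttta
PPARGC1A, start at 24472905: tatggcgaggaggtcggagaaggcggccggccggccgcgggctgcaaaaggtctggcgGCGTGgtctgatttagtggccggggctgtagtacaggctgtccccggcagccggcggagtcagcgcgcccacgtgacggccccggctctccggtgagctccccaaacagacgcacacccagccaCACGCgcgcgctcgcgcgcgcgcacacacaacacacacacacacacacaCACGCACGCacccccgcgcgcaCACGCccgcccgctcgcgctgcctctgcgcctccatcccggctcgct
FBP1: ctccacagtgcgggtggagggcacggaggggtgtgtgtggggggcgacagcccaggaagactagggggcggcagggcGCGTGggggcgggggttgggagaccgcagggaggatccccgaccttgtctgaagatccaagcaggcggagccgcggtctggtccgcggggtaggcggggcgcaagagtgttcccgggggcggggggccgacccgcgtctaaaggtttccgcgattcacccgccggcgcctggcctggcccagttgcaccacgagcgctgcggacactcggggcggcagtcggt

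The AhR peak covered 248 of the 300 bases at G6PC1, 274 and 217 at the PC starts and 156 at PPARGC1A, in each case from the upstream edge. GCGTG, searched on both strands, occurred in none of these 4 windows. It occurred 5 times in the far upstream PPARGC1A window, at 192, 68, 19 and 15 bases before the start and 4 bases into the transcript. The matches at 19 and 15 share 1 base. FBP1 held it once, 173 bases before the start, and neither of these windows had an AhR peak. Over all windows, 43% held GCGTG, with 50.6% of the 1554 under an AhR peak and 42.4% of the others. The AhR-overlapped windows had less G and C than the motif-holding ones: 45.7% at G6PC1, 53% and 50% at PC and 44% at PPARGC1A, against 72% at the far upstream PPARGC1A start and 72.7% at FBP1. Over all windows, the median was 63.3% under an AhR peak and 62.3% elsewhere. A match or its absence describes these letters in these windows and no more.

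Of the other motifs, all searched on both strands, TTGCNNAA, bound by C/EBP factors, occurred in 1 of the 10 windows, that of PPARGC1A at 23881101. It lay 241 bases before the start, on the strand opposite to the printed one, inside the AhR peak, and it overlapped no other motif searched. Over all windows 8.69% held it. TGACG, the core of the cAMP response element, occurred in the windows of the farthest upstream PC start, 3 times, and the far upstream PPARGC1A start, once. None of the other windows here held it, and over all windows 27.9% did. GTAAACA, bound by FOXO factors, was in none of the 10 windows, against 2.85% of all.

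Among the enzymes of the route, PC makes oxaloacetate from pyruvate in mitochondria, the step that commits carbon to glucose. PC lies on chromosome 11 at 66848420 to 66958383. It had 13 AhR peaks, of which 10 lay inside the gene, and 8 had a merge number of at least 2, called merged. Its 3 tabulated starts each had an AhR peak close by. The peak centre lay 266 bp downstream of the start at 66958383, 113.5 bp upstream of the one at 66907953 and 231 bp upstream of the one at 66906034. C/EBPα was close at the start at 66907953, 171.5 bp upstream, while the farthest upstream start had its nearest C/EBPα peak at 12.7 kb. Of the 13 AhR peaks at PC, 3 overlapped both other lists, 2 C/EBPα but not H3K27ac (C/EBPα alone), 6 H3K27ac alone and 2 neither. PC was 1 of 3 genes here with fewer C/EBPα than AhR peaks, at 10 against 13, and it had 24 regions of the inhibitor list with 23 of the untreated one.

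PCK1 encodes the cytosolic phosphoenolpyruvate carboxykinase (PEPCK), which turns oxaloacetate into phosphoenolpyruvate and is a textbook example of hormonal control of transcription. The gene lies on chromosome 20 at 57561110 to 57568121. It had 10 AhR peaks and 14 C/EBPα peaks, none of them inside the gene, and 50 inhibitor-list and 51 untreated-list H3K27ac regions. Per 100 kb of window, H3K27ac reached 47.7 untreated regions, and 0.0651% of protein-coding genes had more. AhR, at 9.34 peaks per 100 kb against a median of 2.58, was exceeded at 3.81% of genes. An AhR peak and a C/EBPα peak overlapped each other just below the lower gene end, at 57560681 to 57560939 and 57560710 to 57560939. Their centres were 300 bp and 285.5 bp outside the gene, and their merge numbers were 2 and 3. The nearest H3K27ac centre to that end was 3.99 kb away, in a region of 1226 bp inside the gene at 57564488 to 57565713, the widest H3K27ac region near any of the 10 genes. Of the 10 AhR peaks of PCK1, 4 overlapped both other lists, 2 C/EBPα alone and 4 H3K27ac alone, and 39 of its 51 untreated H3K27ac regions overlapped neither factor.

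PCK2 encodes the mitochondrial PEPCK, whose gene lies on chromosome 14 at 24094171 to 24104125. It had 7 AhR peaks, of which 1 had a merge number of at least 2, and 10 C/EBPα peaks, of which 9 did. PCK2 stands among other genes: 9 other protein-coding genes lie in the PCK2 window, and for 1 of its 7 AhR peaks PCK2 was the nearest gene. That peak, at 24095619 to 24095839, also lies inside NRL. C/EBPα was closer to the start than AhR, with a peak of merge number 3 centred 282.5 bp upstream, against 1418 bp downstream for AhR. Both H3K27ac lists had 29 regions there, and all 29 were identical.

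FBP1 encodes the fructose bisphosphatase of the liver, which removes a phosphate from fructose bisphosphate, an irreversible step. It lies on chromosome 9 at 94603133 to 94640263 and had 6 AhR peaks, 8 C/EBPα peaks, 14 inhibitor-list and 15 untreated-list regions. These counts were the lowest of the 5 route enzymes. The AhR peaks inside the gene, 3 in all, began at 94608035, 94608569 and 94612115, toward its end away from the start, and the peak nearest the start lay 27.1 kb upstream. That peak, at 94666511 to 94666746, overlapped C/EBPα and H3K27ac, as did the one that began at 94608569.

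G6PC1 encodes the catalytic subunit of glucose-6-phosphatase, which releases free glucose and so completes the route. The gene lies on chromosome 17 at 42900799 to 42914438. It had 15 AhR peaks, 21 C/EBPα peaks, 32 inhibitor-list and 33 untreated-list regions. At 18.5 C/EBPα peaks per 100 kb it was exceeded by 0.0951% of protein-coding genes, and at 13.2 AhR peaks per 100 kb by 0.831%. No AhR peak lay inside the gene. At the start, the AhR peak at 42900548 to 42900796 was centred 127 bp upstream and the C/EBPα peak at 42900514 to 42900791 was centred 146.5 bp upstream. The AhR peak had a merge number of 1 and the C/EBPα peak of 3, while the nearest H3K27ac centre was 3247 bp downstream. Peaks that overlapped both other lists numbered 7 of 15, and 3 of these lay together within 2.25 kb, at 42918908 to 42921157 beyond the far end of the gene. The other G6PC1 peaks were 5 with C/EBPα alone and 3 with H3K27ac alone.

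**Figure D2:**
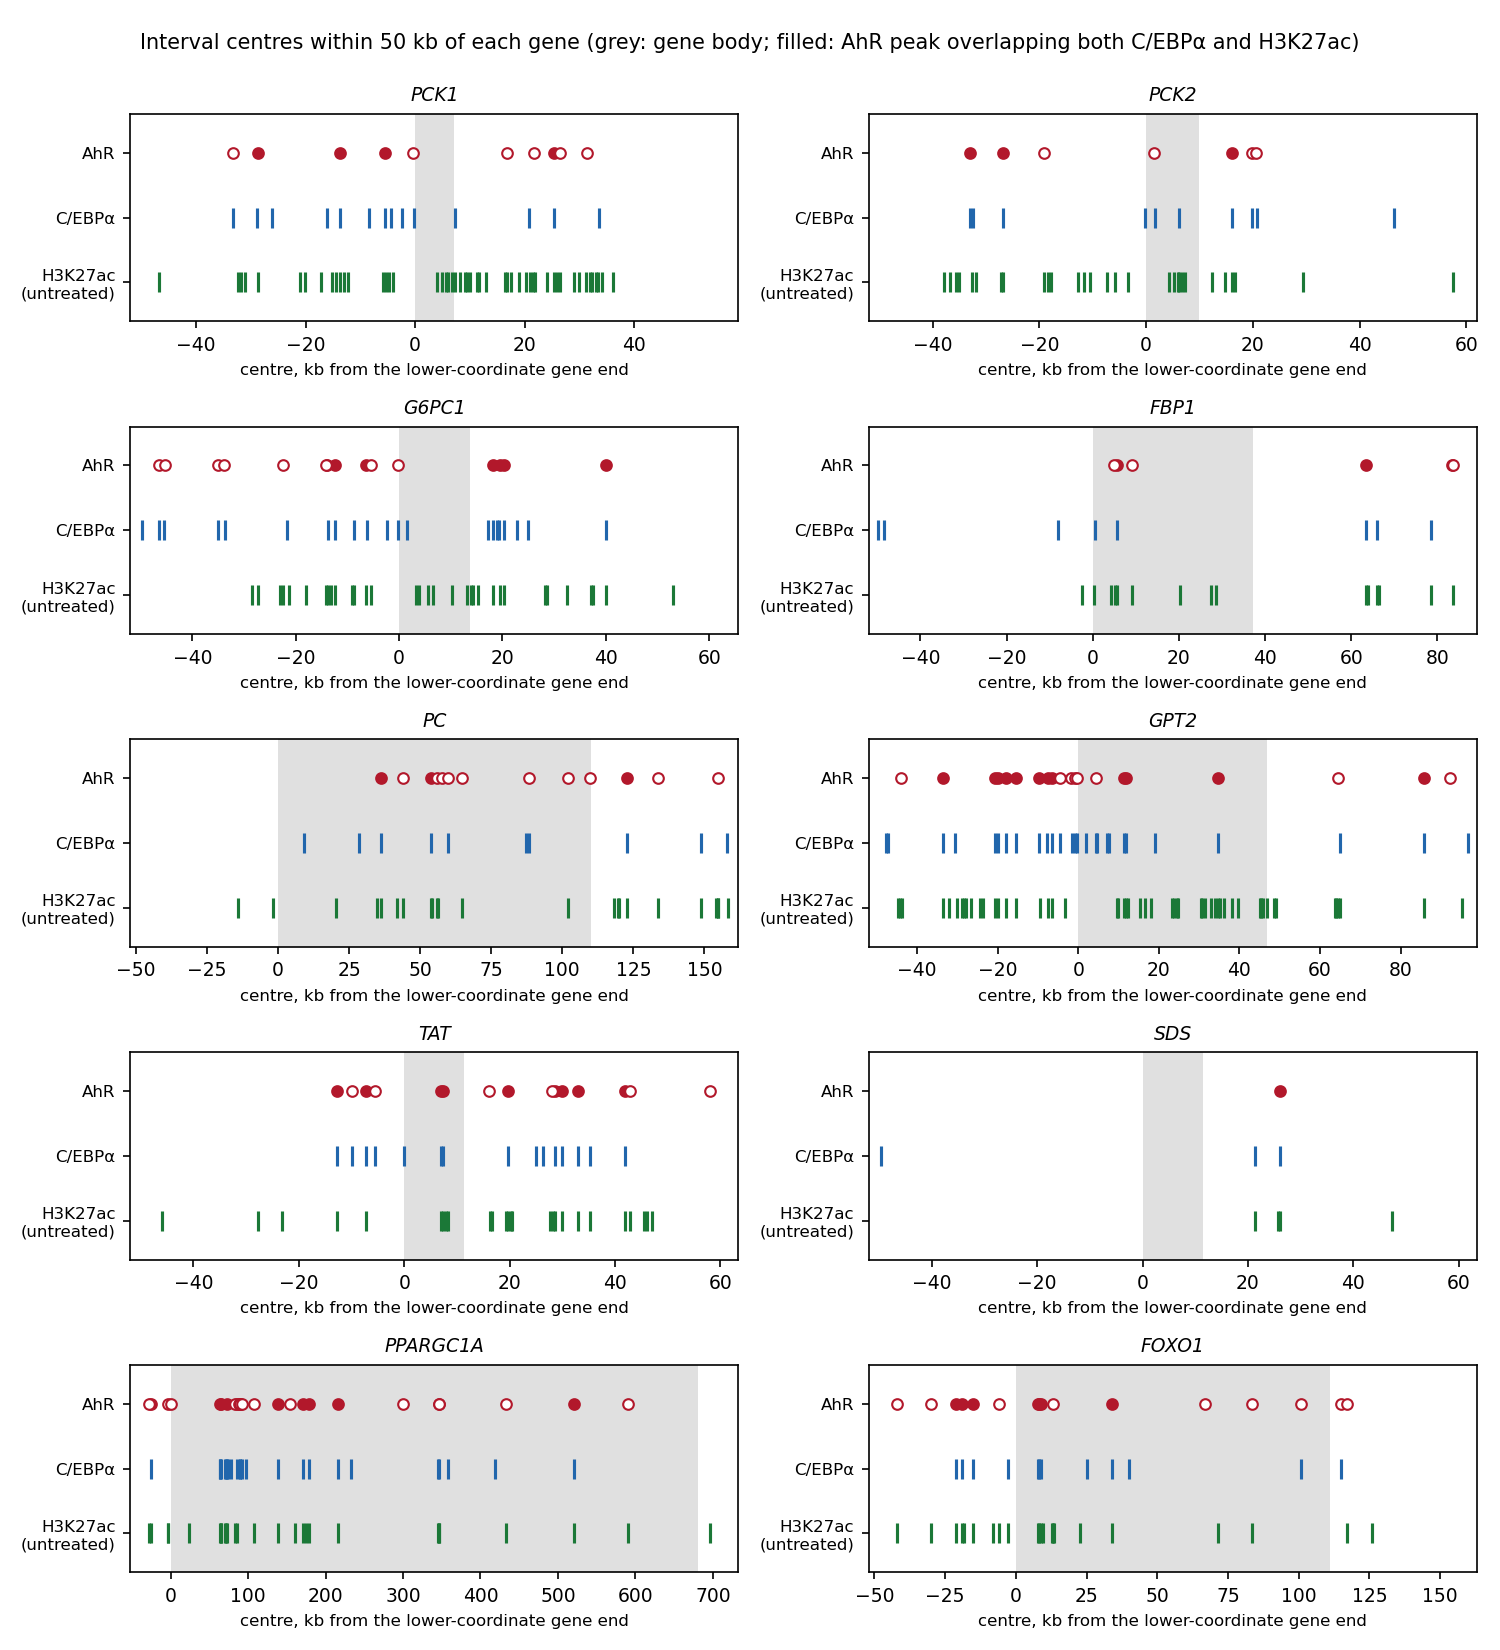
Centres of AhR peaks (circles), C/EBPα peaks and untreated H3K27ac regions (ticks) within 50 kb of each gene, in kb from the gene end with the lower coordinate, with the gene body in grey. Filled circles are AhR peaks that overlapped both other lists. G6PC1 and GPT2 had AhR and C/EBPα peaks just outside the lower gene end, with the nearest H3K27ac centres 3.25 kb and 3.17 kb away. Over the H3K27ac lists without chromosome 8, few centres lay within 3 kb of a start.

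Of the genes for amino acid breakdown, GPT2 encodes the mitochondrial alanine aminotransferase, which yields pyruvate from alanine. It lies on chromosome 16 at 46884362 to 46931289. With 20 AhR peaks, 27 C/EBPα peaks and 54 regions in each H3K27ac list, it stood first among the 10 genes in C/EBPα and H3K27ac counts. By number per 100 kb it was exceeded at 0.701% of genes for AhR, 0.1% for C/EBPα, 0.255% for the inhibitor list and 0.295% for the untreated list. Within 3 kb of the lower gene end, on either side, lay 3 AhR centres, 4 C/EBPα centres and no H3K27ac centre, the nearest being 3.17 kb away. Since both H3K27ac lists held few centres within 3 kb of any start, this absence was not read as particular to GPT2. Farther out, 8 AhR peaks in a row, from 46850658 to 46877902, overlapped both other lists, and all but the outermost had GPT2 as their nearest gene. In all, 12 of the 20 AhR peaks of GPT2 overlapped both other lists and 5 C/EBPα alone, so 17 of 20 overlapped C/EBPα.

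TAT encodes tyrosine aminotransferase, which starts tyrosine breakdown and is a classical glucocorticoid-induced liver gene. It lies on chromosome 16 at 71565660 to 71577092. It had 15 AhR peaks and 15 C/EBPα peaks, with 24 inhibitor-list and 26 untreated-list regions. At 13.5 AhR peaks per 100 kb it was exceeded by 0.746% of genes. AhR was not close to either gene end, with centres 5.55 kb from the lower and 4.12 kb from the higher end. A C/EBPα peak of merge number 3, at 71565530 to 71565781, spanned the lower end. Which end holds the TAT start was not tabulated, so this peak was not read as a promoter peak. Of the 15 AhR peaks, 9 overlapped both other lists, and 10 had a merge number of at least 2. A run of 4 that overlapped both lay at 71594123 to 71607710.

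SDS encodes serine dehydratase, which makes pyruvate from serine. It lies on chromosome 12 at 113392445 to 113403887 and had 1 AhR peak, 3 C/EBPα peaks, 5 inhibitor-list and 4 untreated-list regions. AhR peaks were more numerous at 73.2% of protein-coding genes. The AhR peak, at 113418401 to 113418608, lay 14514 bp outside the gene, had a merge number of 1, and was nearer to SDSL, a related gene, than to SDS. It overlapped C/EBPα as well as H3K27ac. SDS was the gene with the fewest intervals of every list, whereas GPT2 and TAT had 20 and 15 AhR peaks.

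Of the regulators, PPARGC1A encodes PGC-1α, the coactivator that fasting induces. It is a long gene of 681 kb on chromosome 4, at 23792021 to 24472905, and no other protein-coding gene lies in its window. It had 25 AhR peaks, exceeded at 0.616% of genes, and 22 of them lay inside the gene. It also had 24 C/EBPα peaks, 23 inhibitor-list regions and 27 untreated-list regions. Length matters to that count: at 3.2 AhR peaks per 100 kb PPARGC1A was exceeded by 40.9% of genes. For H3K27ac it lay below the all-gene median per 100 kb, at 2.95 inhibitor-list regions against 4.18 and 3.46 untreated-list regions against 4.72, and for C/EBPα it was near it, at 3.07 peaks against 2.94. A group of 5 AhR centres lay within 5 kb of the start at 23881101, in peaks from 23877741 to 23884621. The peak nearest to this start was centred 212 bp upstream with a merge number of 2, and the nearest C/EBPα peak 233.5 bp upstream with a merge number of 3. At the far upstream start, which the GC-rich window above belongs to, the nearest AhR centre was 90.4 kb away and the nearest C/EBPα centre 122 kb away. Of the 25 AhR peaks, 11 overlapped both other lists, 3 C/EBPα alone, 7 H3K27ac alone and 4 neither.

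FOXO1 encodes the forkhead factor that insulin restrains. It lies on chromosome 13 at 40555667 to 40666641 and had 16 AhR peaks, 12 C/EBPα peaks and 22 regions in each H3K27ac list, with no other protein-coding gene in its window. AhR numbered 7.58 peaks per 100 kb, exceeded at 7.86% of genes. The start was without a close peak: the nearest AhR centre lay 3.84 kb upstream and the nearest C/EBPα centre 3.87 kb upstream. Of the 16 AhR peaks, 8 lay inside the gene and 7 overlapped both other lists. The tightest run of 3 such peaks, among the 8 genes with at least 3, spanning 1.45 kb at 40563346 to 40564799, lay in FOXO1.

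**Figure D3:**
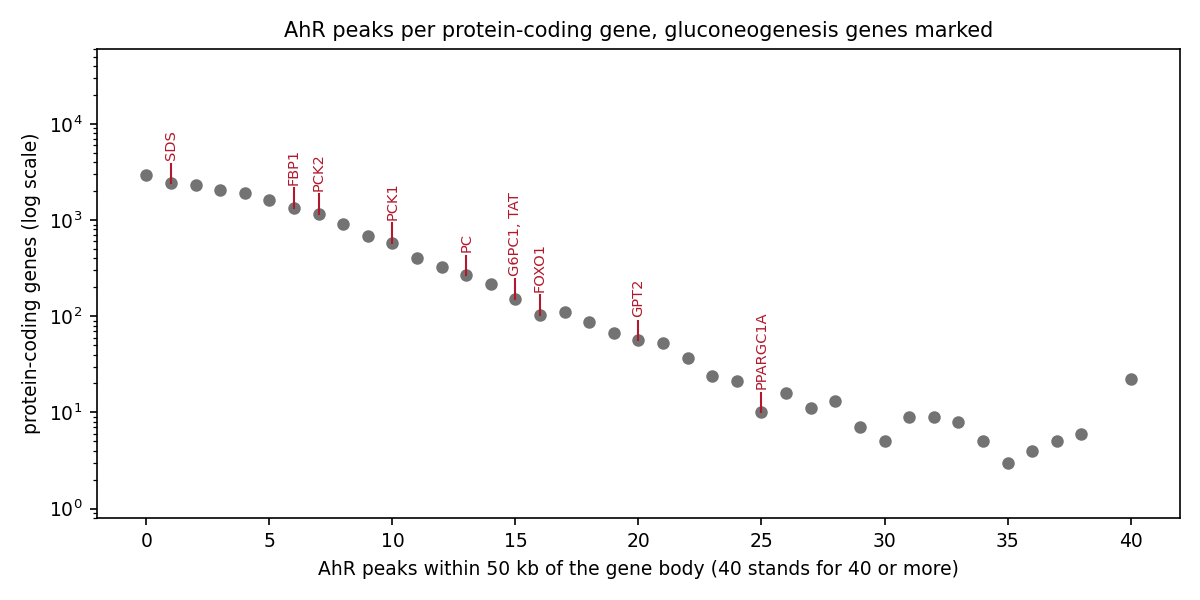
Number of protein-coding genes (y axis, log scale) by AhR peaks within 50 kb (x axis, counts, with 40 for 40 or more), each point a number of peaks. The gluconeogenesis genes are marked: SDS has 1 AhR peak, below the median of 4, and the other 9 genes lie above it, up to 25 at PPARGC1A.

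Merge numbers and widths were near those of the whole lists. AhR peaks with a merge number of at least 2 made up 46.1% (37.7 to 54.7) of the 128, against 42.3% of the list, and C/EBPα peaks of merge number 3 made up 39.6% (32 to 47.7), against 39%. By gene, 10 of 15 AhR peaks of TAT and 8 of 13 of PC were merged, against 1 of 6 at FBP1 and the single unmerged peak of SDS. The median AhR peak was 239 bp wide, against 234 bp, and the median untreated H3K27ac region 282 bp, against 284 bp. Untreated H3K27ac regions covered 17.6 kb around PCK1 and 16.8 kb around GPT2, but 1.6 kb around SDS.

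The next question was how AhR peaks at these genes lay with C/EBPα and H3K27ac. All 10 genes had an AhR peak that overlapped, by at least 1 bp, intervals of both the C/EBPα and the untreated H3K27ac list, against 62.2% of all genes. At least 3 such peaks were found at 8 of 10, against 24.9% of all genes. Every such peak at PCK2 and SDS was nearer to another gene. With nearest gene only, 8 of 10 genes kept a peak that overlapped both lists, and with merged peaks only it was also 8. An AhR peak lay inside or across the gene body of 7 of the 10, against 47% of all genes. PCK1, G6PC1 and SDS had none there. Of the 128 AhR peaks, 83 overlapped a C/EBPα peak, a share of 64.8% (95% Wilson interval 56.2 to 72.6) against 55.3% of the whole AhR list. With merged peaks only in both lists the order turned, at 54.2% (41.7 to 66.3) against 59.9%. For H3K27ac the share was 73.4% (65.2 to 80.3) against 70.7%, and the whole-list share lies inside the interval. Overlap with both was 46.1% (37.7 to 54.7) against 41.1%, and with neither 7.81% (4.3 to 13.8) against 15.1%. These intervals cover counting error over peaks only and are too narrow, since neighbouring peaks share their locus.

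Overlap with C/EBPα varied among the genes. The shares were 17 of 20 AhR peaks at GPT2, 12 of 15 at G6PC1, 6 of 7 at PCK2 and 11 of 15 at TAT. At PC the share was 5 of 13 and at FBP1 2 of 6. Where AhR and C/EBPα overlapped, their centres were a median of 20.5 bp apart (83 peaks), against 21.5 bp over the list. From the side of C/EBPα, 57.6% of 144 peaks (49.5 to 65.4) overlapped AhR, against 50.1%. A merge number of 3 was held by 54.2% (43.6 to 64.5) of the C/EBPα peaks with AhR and 19.7% (11.6 to 31.3) of those without, and the whole list gave 59.7% and 18.2%. Of the 284 untreated H3K27ac regions near the genes, 33.1% (27.9 to 38.8) overlapped AhR, against 37.8%, and 60.2% overlapped neither factor, against 55.3%. Not every C/EBPα peak came with another interval. Of the 61 C/EBPα peaks without AhR, 19 overlapped H3K27ac and 42 overlapped neither, with 9 of these at GPT2, 8 at PPARGC1A and 7 at G6PC1. The genes also differed in how much of their H3K27ac lay without either factor: 39 of 51 untreated regions at PCK1, 24 of 29 at PCK2 and 39 of 54 at GPT2, against 7 of 27 at PPARGC1A and 8 of 22 at FOXO1. Whether the B2-deficient inputs shared by the AhR and C/EBPα ChIP bear on their overlap was not tested.

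**Figure D4:**
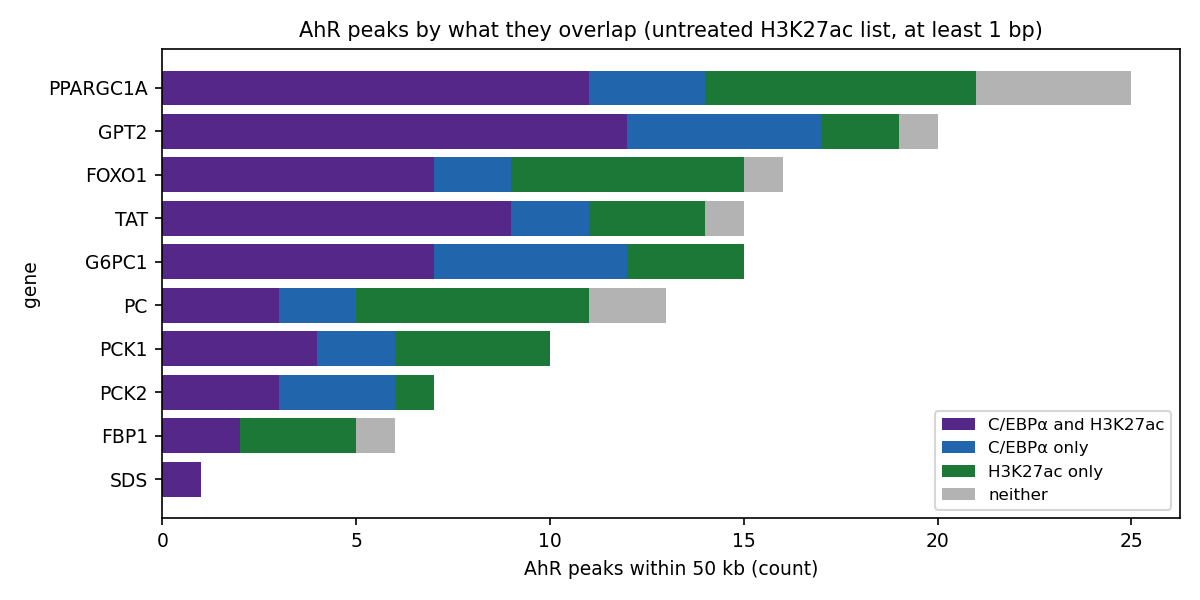
AhR peaks within 50 kb of each gene (x axis, counts) by what they overlapped by at least 1 bp in the C/EBPα and untreated H3K27ac lists (colours). GPT2 and PPARGC1A had the most peaks with both, 12 and 11, and PCK1, PCK2, G6PC1 and SDS had no peak with neither.

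Distance from a start site moved with the H3K27ac overlap. Of the AhR peaks at the 10 genes, 18 had centres within 3 kb of the tabulated start of any gene, neighbours included, or of a gene end for PCK1, GPT2 and TAT, and 2 of these overlapped H3K27ac, or 11.1% (3.1 to 32.8). Of the 13 within 3 kb of a start or end of the 10 genes themselves, 1 overlapped H3K27ac. Beyond 3 kb of any it was 92 of 110, or 83.6% (75.6 to 89.4). C/EBPα did not follow this, with 13 of 18 near a start, or 72.2% (49.1 to 87.5), and 63.6% (54.3 to 72) beyond. The AhR list without chromosome 8 gave the same order for H3K27ac, 19.2% of 7317 peaks within 3 kb and 78.7% of 46867 beyond. For C/EBPα it gave 50.6% within and 56.1% beyond. These list shares rest on tabulated starts, so the C/EBPα values are not like for like. The peaks counted near a gene end, 1 at PCK1 and 3 at GPT2, all overlapped C/EBPα. No difference in order from the list is therefore drawn for C/EBPα. Both H3K27ac lists changed in density at 3 kb from a start: the inhibitor list held 1096 centres between 2 and 3 kb and 3673 between 3 and 4 kb, and the untreated list 1184 and 3929. The AhR list held 1683 and 1602, and the C/EBPα list 1953 and 1747. No source used here says whether or how the H3K27ac lists were filtered. The absence of H3K27ac intervals at the start of G6PC1 or PPARGC1A describes these lists. Whether it holds for the chromatin was not tested.

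The H3K27ac lists of the experiments were set side by side at each gene. They shared regions with identical coordinates: 273 of the 277 inhibitor-list regions near the 10 genes, or 98.6% (96.3 to 99.4), were in the untreated list, against 95.9% of that whole list. In the other direction, 273 of 284 untreated regions, or 96.1% (93.2 to 97.8), were in the inhibitor list, against 87.4%. No region overlapped another without being identical, and all 93202 shared regions carried the same merge number in both lists. The lists are therefore not independent tallies, and no source used here says which libraries entered each.

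The regions in 1 list alone were few, and PPARGC1A had the most of them. The inhibitor list alone had 4: 2 inside PPARGC1A at 24150096 to 24150325 and 24419477 to 24419742, 1 inside SDS at 113393099 to 113393318 and 1 outside PC at 66987401 to 66987692. The untreated list alone had 11, of which 6 were at PPARGC1A, 2 at TAT and 1 each at PCK1, G6PC1 and FBP1. PPARGC1A shared 21 of its 27 untreated regions, or 77.8%, and the other 9 genes shared 252 of 257. Over the whole untreated list 87.4% were shared, so the share at PPARGC1A was below that of the list and the share at the others above it. The whole lists held 13464 untreated-only and 3943 inhibitor-only regions. AhR peaks overlapped 4 of the 11 untreated-only regions, all 4 at PPARGC1A, and none of the 4 inhibitor-only ones. Over the whole lists, AhR peaks overlapped 23.2% of untreated-only regions and 9.36% of inhibitor-only ones, and the inhibitor list held 92.2% of the untreated regions with AhR and 84.4% of those without. The 4 regions with AhR began at 23766395, 24224565, 24312589 and 24382459. PCK2, PC, GPT2, SDS and FOXO1 had every untreated region in the inhibitor list.

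The rest of the pathway was taken from lists of 24 other enzymes and transporters and 16 other regulators. Of the enzymes and transporters, 22 of 24 had an AhR peak within 50 kb and 16 of 24 had one that overlapped both other lists, counts near the all-gene shares of 85.4% and 62.2%. Of the regulators, 16 of 16 had both. The median of AhR peaks per gene was 14 for the 10 genes, against 6 for these enzymes and transporters, 9.5 for these regulators and 4 over all protein-coding genes. For untreated H3K27ac regions it was 26.5 for the 10 genes, against 9.5, 17.5 and 7 in the same order. The 5 hepatocyte markers stood above them, with medians of 18 AhR peaks, 18 C/EBPα peaks and 39 untreated regions, against which the 10 genes had 14, 13 and 26.5. HNF4A was counted both as a marker and as a regulator, so these groups are not separate. Its 18 AhR peaks and 39 untreated regions are the marker medians for those lists. The most AhR peaks were at HNF4A, a liver nuclear receptor that acts with PGC-1α, with 18, FOXO3, a relative of FOXO1, with 17, and INSR, the insulin receptor, with 16. ENO1, an enolase, IRS1, an adaptor of the insulin receptor, and TRIB1, a pseudokinase that promotes the breakdown of C/EBPα, followed with 15 each. G6PC2, the pancreatic islet relative of G6PC1, and SLC25A1, the mitochondrial citrate carrier, had 0, the glycolytic and gluconeogenic isomerase gene GPI had 2 and GCGR, the glucagon receptor, had 3.

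The window decides which peaks count. The AhR peaks farthest from their gene yet inside the 50 kb window lay 46565 bp away at TAT, 46401 bp at FBP1 and 46281 bp at G6PC1. Just beyond 50 kb lay AhR peaks at 51233 bp from FOXO1, 51308 bp from GPT2, 52371 bp from FBP1 and 53535 bp from G6PC1. Of the 128 AhR peaks, 97 had a gluconeogenesis gene as their nearest gene, and 31 were nearer to another, chiefly at PCK2, PCK1, G6PC1 and GPT2. With only those 97, PPARGC1A and FOXO1 kept all of theirs and SDS had none.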

How the data were processed

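The authors deposited lists of named intervals with chromosome, first and last position, and a sign. These deposited values are positions only, and the 4 HepG2 lists carry no count or score for any library. The submitters' processing notes name Bowtie2, HOMER and the human build hg38, with no versions of the tools. No source used here gives caller settings, filters or which peak sets were merged. H3K27ac chromatin was crosslinked with formaldehyde, and AhR and C/EBPα chromatin with DSG and then formaldehyde, per the labels' protocols.

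Gene bodies were taken from RefSeq's GRCh38.p14 gene table, the assembly behind hg38, and promoter windows and start sites from its promoter table, which was not used here for chromosome 8. Overlap means at least 1 bp. Shares have 95% Wilson intervals over peaks. Nothing was tested between conditions, because a test needs a value per library, and the edgeR fit planned for that case was not run. Alternatives were a window of 10 kb, the gene body, the whole interval inside the window, nearest gene only, merged peaks only, 50% overlap, centres within 500 bp and the inhibitor list. Leaving out AhR peaks within 3 kb of a start was chosen after seeing the data. The genes and pathway lists were chosen with earlier results of these data known. All 10 genes are named, and of the other pathway genes those with the most and the fewest AhR peaks, up to 5 each way, except that ties were named whole at the top and left out at the bottom. The routines were checked on simulated data. Mouse lists were not used here. Scripts ran in Python 3.11.15 with pandas 2.3.3, NumPy 2.4.6, SciPy 1.17.1 and, for figures, Matplotlib 3.10.9.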

Additional observations from a re-analysis of the deposited data

How the results depend on the processing

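No paired analysis was possible because the lists carry no value per library, and for the same reason no replicate could be left out and no condition compared. Of 75 alternative values, 61 were within 1.5 times the main count or inside the main share's interval and 14 were not, and most of these follow from a narrower window. A window of 10 kb left 77 AhR peaks of 128, 88 C/EBPα peaks of 144, 153 inhibitor-list regions of 277 and 155 untreated regions of 284. The gene body alone left 50, 54, 98 and 100 in the same order, and 6 of 10 genes with an AhR peak that overlapped both other lists. Counting merged peaks only left 59 AhR and 85 C/EBPα peaks. With these, 54.2% of AhR peaks overlapped C/EBPα, against 64.8% of all and 59.9% over the merged lists, and 62.4% of C/EBPα peaks overlapped H3K27ac, against 54.2% of all and 54.4% over the merged lists. The cause was not tested. AhR peaks beyond 3 kb of a start overlapped H3K27ac at 83.6%, against 73.4% of all, an alternative chosen after seeing the data. Unknown depth limits every count.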
